A study of Mus musculus with 11 samples.

Results

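The Wnt ligands, receptors, secreted antagonists, R-spondins and feedback genes were examined in serum-starved NIH/3T3 cells, an established mouse embryonic fibroblast line. Members were taken by gene symbol: every Wnt, Fzd, Sfrp, Dkk and Rspo gene with a number, Nkd1, Nkd2, Lrp5, Lrp6, Axin2, Lef1, Tcf7, Wif1, Ror1 and Ror2. The rule took 51 of the 21684 genes in the deposited table: 19 ligands, 14 receptors and co-receptors, 9 antagonists, 4 R-spondins and 5 feedback or nuclear genes. Of the 51, 26 had enough counts to be tested. WT cells gave 2 libraries, and each of the knockout lines Xap5 KO, Nono KO and Sox5 KO gave 3. All 11 cultures had been without serum for 24 h, the condition under which these cells form a primary cilium, and the study asked which genes the 3 knockouts change in common and separately. Each knockout was taken as 1 line, since the labels name no separate clones, so genotype and line cannot be told apart. Nothing in the labels says that the libraries of a genotype came from separate experiments, so p-values measure the spread between these libraries, which may be technical.

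Wnt proteins are secreted lipid-modified ligands that bind Frizzled receptors. With the co-receptors Lrp5 and Lrp6 they stabilise beta-catenin, which enters the nucleus and acts through Lef1 and the Tcf factors, and with Ror1, Ror2 and other partners they act on cell shape and migration without beta-catenin. Sfrp proteins and Wif1 bind the ligands themselves, most Dkk proteins bind the Lrp co-receptors, and R-spondins keep Frizzled and Lrp proteins at the cell surface. Axin2 is a scaffold of the beta-catenin destruction complex and a widely used readout of the beta-catenin branch. Fibroblasts are known both as a source of Wnt ligands and antagonists and as cells that respond to them.

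Library totals ran from 30205878 to 43498383 counts. Levels are given as CPM, the count scaled to library size and composition. A call means an adjusted p below 0.05 from the quasi-likelihood test of edgeR, adjusted by Benjamini-Hochberg over the 13332 genes tested. Fam50a, the mouse symbol of Xap5, stood at 62.9 to 64.8 CPM in WT and 7.49 to 7.91 in Xap5 KO, and Nono at 351 to 357 CPM in WT and 27.6 to 34.0 in Nono KO. Sox5 stood at 45.9 to 49.7 CPM in WT and 12.6 to 13.9 in Sox5 KO, but also at 11.9 to 15.02 in Xap5 KO and 7.01 to 8.75 in Nono KO. The 9 tested genes of the Y chromosome summed to 199 and 204 CPM in WT and to at most 0.390 in every knockout library, so all 3 knockouts stood apart from WT in more than the targeted gene. The 10 fibroblast markers were all expressed, and their summed level was 24609 to 24750 CPM in WT, 18855 to 20190 in Xap5 KO, 49286 to 54005 in Nono KO and 20919 to 21322 in Sox5 KO. They did not all move together. In the mean, Fn1 stood at 13961 CPM in WT and 8894 in Xap5 KO, and Col1a1 at 1090 and 1988. Pdgfra stood at 884 CPM in WT and 432 in Sox5 KO, and S100a4 at 355 and 925. The 4 muscle markers summed to 139.7 to 149 CPM in WT and to 1453 to 3020.0 in the knockouts, almost all of it Acta2, which stood on average at 144 CPM in WT, at 1635 in Xap5 KO, at 2168 in Nono KO and at 2840 in Sox5 KO, while Myod1 was at 0 throughout. Epithelial markers summed to at most 0.397 CPM in any library, with Krt8 and Krt18 at 0. The 4 leukocyte markers summed to 7.12 to 7.31 CPM in WT and 10.5 to 15.05 in Nono KO, where Ptprc was higher (6.66 against 0.107 in the mean) and Cd14 was not (4.07 against 5.12). The 5 cartilage and bone markers summed to 1.46 to 2.00 CPM in WT and 10.7 to 12.2 in Sox5 KO, with Col2a1 at 11.2 against 1.26 in the mean and Ibsp at 0 against 0.240. The 4 neural markers summed to 12.2 to 15.2 CPM in WT, 26.7 to 27.8 in Nono KO and 0.0618 to 0.373 in Sox5 KO, mostly Map2. Mitochondrial RNA took 6.20% to 6.28% of counts in WT and 6.06% to 10.3% in the knockouts. The part of these differences between lines in the Wnt results was not tested.

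Of the 26 tested members, 9 rose and 7 fell in Xap5 KO against WT, 11 rose and 6 fell in Nono KO, and 7 rose and 11 fell in Sox5 KO. Among all tested genes, 23.2% rose and 22.3% fell in Xap5 KO (45.5% either way), 23.5% rose and 25.1% fell in Nono KO (48.6%), and 30.6% rose and 30.3% fell in Sox5 KO (60.9%). At least a 2-fold called difference was seen for 9 members in Xap5 KO, for 9 in Nono KO and for 11 in Sox5 KO, where 10.3%, 11.2% and 17.2% of all genes had one. The median size of the members' log2 difference, without its sign, was 0.78 for Xap5 KO (0.32 over all tested genes), 0.57 for Nono KO (0.34) and 1.14 for Sox5 KO (0.50). By role, the tested ligands gave 0 higher and 3 lower of 6 in Xap5 KO, 2 and 2 in Nono KO and 0 and 3 in Sox5 KO. The 12 tested receptors gave 6 higher and 2 lower in Xap5 KO, 5 and 3 in Nono KO and 3 and 6 in Sox5 KO. Of the 5 tested antagonists, 1 rose and 2 fell in Xap5 KO, 2 rose in Nono KO, and 3 rose and 1 fell in Sox5 KO. Each count of lower members, of lower ligands and of 2-fold differences against WT includes Wnt10a, which entered the test through its WT libraries alone. In bulk RNA, fewer cells of a type and less RNA per cell cannot be told apart.

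**Figure D1:**
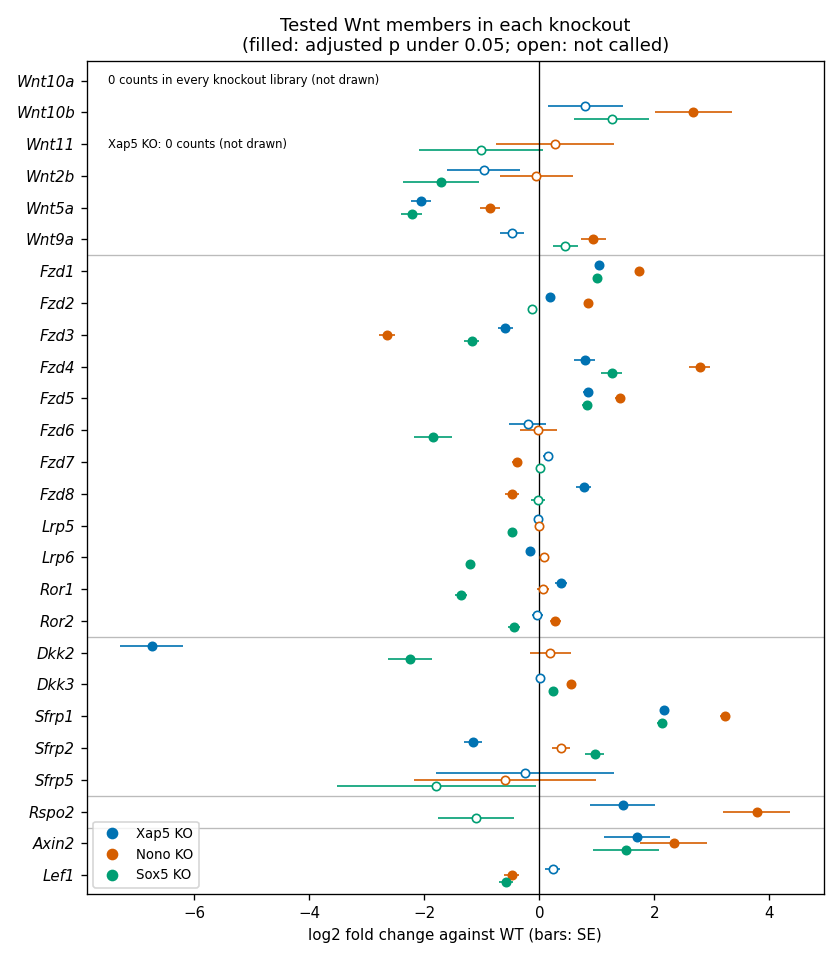
Log2 fold change against WT of each tested Wnt member (rows, grouped by role) in the 3 knockouts, with the standard error as a bar; filled points passed the test and open points did not. Dkk2 in Xap5 KO lies farthest to the left at -6.74 and Rspo2 in Nono KO farthest to the right at 3.78; members at 0 counts in a knockout are not drawn there.

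Many members were at or near 0 in this line. Wnt1, Wnt3, Wnt3a, Wnt8a, Wnt9b, Fzd9, Fzd10, Dkk4, Nkd1 and Rspo4 had 0 counts in all 11 libraries, and Wnt2, Wnt6, Wnt7b, Wnt8b, Dkk1, Rspo1 and Nkd2 never exceeded 3 counts. A further 8 members exceeded 3 counts somewhere without enough signal for the test. Among those 8, Wnt16, Wnt4, Wnt5b, Wnt7a, Sfrp4, Rspo3 and Tcf7 reached at most 13 counts in any library. Wif1, a secreted inhibitor that binds Wnt ligands, had 20 and 7 counts in the WT libraries and 0 in all 9 knockout libraries. No test was run on it. Wnt10a passed the filter through its WT libraries alone, and 21 of the 26 tested members were above the filter level of 0.263 CPM in all 11 libraries.

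Per kb of transcript, receptor and Dkk RNA was far more abundant than ligand RNA. The summed level of the Frizzled receptors stood at 87.7 and 85.0 CPM per kb in the WT libraries, at 122, 119 and 123 in Xap5 KO, at 164, 155 and 179.6 in Nono KO and at 107, 108 and 109 in Sox5 KO. All knockout libraries were above both WT libraries, and the Nono KO libraries were above all others. The summed Sfrp level went from 22.9 ± 0.152 CPM per kb in WT (SD, n = 2) to 46.0 ± 3.88 in Xap5 KO, to 100.3 ± 3.03 in Nono KO and to 65.6 ± 3.04 in Sox5 KO (SD over 3 libraries), with no overlap between the 4 groups. The summed Wnt level stood at 5.09 ± 0.106 CPM per kb in WT, at 2.23 ± 0.281 in Xap5 KO, at 5.79 ± 0.915 in Nono KO and at 3.25 ± 0.224 in Sox5 KO, so that the Nono KO and WT libraries overlapped and the other knockouts lay below WT. Dkk RNA was almost all Dkk3, the member with a weak link to Wnt signalling, which made up 97.8% ± 0.150 of it in WT. These sums are levels, and no test was run on them.

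**Figure D2:**
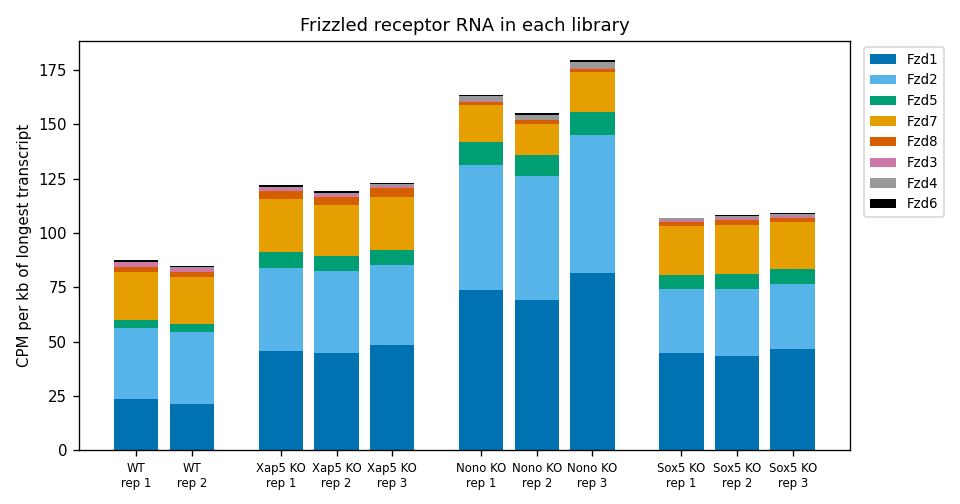
Stacked level of the 8 expressed Frizzled genes in each of the 11 libraries, in CPM per kb of the longest annotated transcript, starting at 0. The stacks reach 85.0 to 87.7 in WT and 155 to 179.6 in Nono KO, and the Fzd1 segment widens from 26.0% of the WT stack to 38.2% in Xap5 KO, to 45.0% in Nono KO and to 41.6% in Sox5 KO.

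Fzd1, Fzd4 and Fzd5, 3 of the 8 expressed Frizzled receptors, rose in each knockout, most in Nono KO. Fzd1 (ENSMUSG00000044674) stood at 99.0 and 89.8 CPM in WT cells, at 192, 189 and 204 in Xap5 KO, at 309.7, 289.9 and 342 in Nono KO and at 189, 182 and 195 in Sox5 KO. The log2 fold change of Fzd1 was 1.05 ± 0.0719 in Xap5 KO (SE, adjusted p = 1.56e-10), 1.73 ± 0.0737 in Nono KO (adjusted p = 4.34e-14) and 1.00 ± 0.0719 in Sox5 KO (adjusted p = 1.29e-10). No knockout library overlapped WT, and the Xap5 KO and Sox5 KO libraries interleaved with each other. Fzd4, the receptor that also takes the retinal ligand norrin (ENSMUSG00000049791), was scarce in WT at 2.21 and 2.43 CPM and stood at 3.94, 3.68 and 4.43 in Xap5 KO, at 15.5, 15.8 and 16.8 in Nono KO and at 5.26, 5.59 and 5.87 in Sox5 KO. Its log2 fold change was 0.79 ± 0.181 in Xap5 KO (adjusted p = 0.00122), 2.79 ± 0.187 in Nono KO (adjusted p = 7.20e-11) and 1.26 ± 0.183 in Sox5 KO (adjusted p = 3.94e-06), and the 4 groups lay in separate ranges. Fzd5 (ENSMUSG00000045005) stood at 25.7 and 28.0 CPM in WT cells, at 49.9, 49.5 and 45.8 in Xap5 KO, at 76.2, 66.3 and 71.6 in Nono KO and at 46.4, 48.7 and 47.2 in Sox5 KO. Its log2 fold change was 0.85 ± 0.0853, 1.41 ± 0.0866 and 0.82 ± 0.0855 in that order of knockouts, with adjusted p-values of 5.31e-08, 1.67e-11 and 3.82e-08. As with Fzd1, the Nono KO libraries were the highest and the other knockouts lay together above WT. The 3 contrasts share the 2 WT libraries, so their agreement in sign is not independent. Fzd5 overlaps an exon of a gene on the other strand, and since the handling of strand is not given in the sources used here, reads of that gene and of Fzd5 may be mixed.

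**Figure D3:**
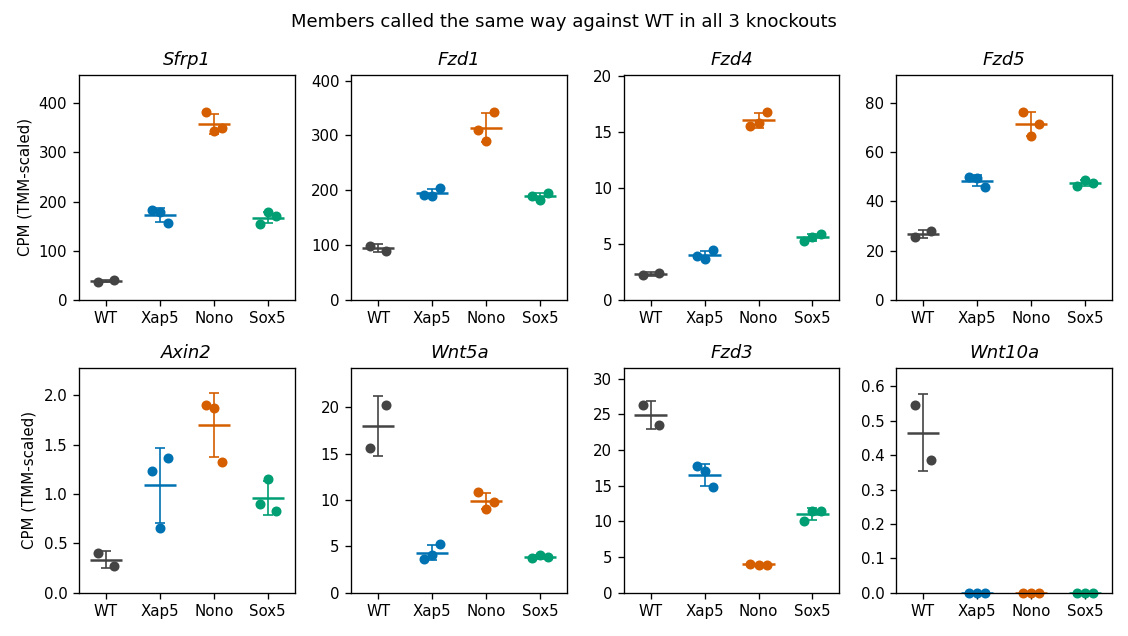
CPM in each library (points) of the 8 members that passed the test in the same direction against WT in all 3 knockouts, with the mean and SD of each genotype; every axis starts at 0. Sfrp1, Fzd1, Fzd4, Fzd5 and Axin2 lie higher in each knockout and Wnt5a, Fzd3 and Wnt10a lower, and Nono KO stands apart from the other knockouts for Sfrp1, Fzd1, Fzd4, Fzd5, Wnt5a and Fzd3.

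In all, 8 members passed the test in each of the 3 contrasts with the same sign, 5 higher and 3 lower, while 15.9% of all tested genes did so (8.33% higher, 7.61% lower). Wnt10a, 1 of the 3 lower, had to be high in WT to be tested at all. The count was 7 without either WT library, without Xap5 KO replicate 3 or Sox5 KO replicate 2, with the replicate block, in fits of the 2 groups alone and with a minimum mean of 10 counts. Because the contrasts share the WT libraries, this count is a description and not a test of a common response. The promoters of members that rose in every knockout and have an entry in the RefSeq table are shown here. Their base composition can be compared with that of Wnt11, the tested member with a promoter that holds the full TCF/LEF core CTTTGAT. Another RefSeq promoter of Wnt11, not shown, holds neither CTTTGAT nor CTTTG. RefSeq promoters of build GRCm38.p6 were given for 35 of the 51 members and 15 of the 26 tested ones. Each line gives the 250 bases before the annotated start, 5′ to 3′ on the gene's strand, with capitals marking the short core CTTTG on either strand, or the full core where it is present.
Fzd1, chr5:4758217-4758466, minus strand: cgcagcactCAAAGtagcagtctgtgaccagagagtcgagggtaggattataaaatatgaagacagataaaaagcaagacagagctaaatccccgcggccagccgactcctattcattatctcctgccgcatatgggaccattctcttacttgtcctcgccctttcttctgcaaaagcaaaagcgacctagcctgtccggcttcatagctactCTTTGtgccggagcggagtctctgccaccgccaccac
Fzd4, chr7:89404116-89404365, plus strand: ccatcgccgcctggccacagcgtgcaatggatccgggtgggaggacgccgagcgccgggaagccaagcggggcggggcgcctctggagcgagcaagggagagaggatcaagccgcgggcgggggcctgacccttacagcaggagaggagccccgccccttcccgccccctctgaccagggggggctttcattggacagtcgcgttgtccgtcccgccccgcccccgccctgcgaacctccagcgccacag
Fzd5, chr1:64737751-64738000, minus strand: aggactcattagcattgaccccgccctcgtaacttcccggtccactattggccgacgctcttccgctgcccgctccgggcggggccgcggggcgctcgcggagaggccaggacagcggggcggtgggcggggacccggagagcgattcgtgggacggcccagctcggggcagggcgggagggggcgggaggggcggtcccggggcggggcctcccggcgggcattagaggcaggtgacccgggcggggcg
Axin2, chr11:108920099-108920348, plus strand: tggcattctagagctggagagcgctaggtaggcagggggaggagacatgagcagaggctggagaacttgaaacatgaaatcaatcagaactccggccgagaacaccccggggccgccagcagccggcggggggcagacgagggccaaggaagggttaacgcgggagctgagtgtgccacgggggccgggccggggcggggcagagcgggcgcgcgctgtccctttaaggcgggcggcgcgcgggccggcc
Wnt11, chr7:98834862-98835111, plus strand: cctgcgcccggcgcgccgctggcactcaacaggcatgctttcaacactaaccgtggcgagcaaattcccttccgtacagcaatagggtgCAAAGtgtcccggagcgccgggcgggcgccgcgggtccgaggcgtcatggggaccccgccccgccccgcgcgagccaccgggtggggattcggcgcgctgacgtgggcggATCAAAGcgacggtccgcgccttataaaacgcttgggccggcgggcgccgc

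The Fzd4, Fzd5 and Axin2 windows were rich in GC, at 72.8%, 76.4% and 69.2%, with 25, 32 and 24 CpG pairs, whereas the Fzd1 window had 51.2% GC and 12 CpG pairs. The Wnt11 window shown had 70.8% GC and 37 CpG pairs, and the other Wnt11 promoter had 56.8% and 16. Over the 19 RefSeq promoters of tested members the median GC content was 66.4% with 16 CpG pairs, against 52.4% and 6 over all 32851 promoters of the same length. The core CTTTGAT was in 1 of the 19 tested members' promoters (5.26%) and in 3.21% of all. The SOX core ATTGTT, searched likewise on both strands, was in 0 of the 19 (0%) and in 9.42% of all. The set of all promoters was not matched to the members for GC content. The shorter letters CTTTG, a part of CTTTGAT chosen after the data were seen, were in 52.6% of the tested members' promoters and 48.6% of all. The shorter ATTGT, a part of ATTGTT chosen in the same way, was in 5.26% and 27.7%. These matches describe letters in these windows only.

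Fzd3, a receptor known for axon guidance and planar polarity (ENSMUSG00000007989), was the Frizzled gene that fell in every knockout. It stood at 26.3 and 23.4 CPM in WT cells, at 17.7, 17.0 and 14.7 in Xap5 KO, at 4.02, 3.92 and 3.92 in Nono KO and at 10.0, 11.5 and 11.5 in Sox5 KO. The 4 genotypes lay in separate ranges of CPM, with Nono KO the lowest. The log2 fold change was -0.59 ± 0.129 in Xap5 KO (adjusted p = 7.33e-04), -2.65 ± 0.137 in Nono KO (adjusted p = 9.76e-13) and -1.18 ± 0.131 in Sox5 KO (adjusted p = 9.88e-08). Under an offset that models length and GC content the value of Fzd3 in Sox5 KO was -0.37, still past the threshold. The order of Xap5 KO and Sox5 KO was not kept under that offset. Their called log2 difference of 0.58 for Fzd3 became -0.22, which was not called.

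None of the remaining Frizzled genes passed the test in all 3 knockouts. Fzd2, the most abundant Frizzled RNA per kb in WT, stood at 120.3 ± 0.0983 CPM in WT, at 137 ± 2.67 in Xap5 KO, at 217 ± 14.0 in Nono KO and at 110.2 ± 3.20 in Sox5 KO (SD). It rose by 0.85 ± 0.0624 on the log2 scale in Nono KO (adjusted p = 2.91e-10). The rise of 0.19 ± 0.0614 in Xap5 KO (adjusted p = 0.0153) was lost without either WT library, without Xap5 KO replicate 1 and with library totals alone. In Sox5 KO, Fzd2 differed by -0.13 ± 0.0613, which missed the threshold and passed it with library totals alone (-0.24), with the chromosome offset (-0.27) and in a fit of those groups alone (-0.14). Fzd7, like Fzd1 and Fzd2 a receptor broadly expressed in mesenchymal cells, fell in Nono KO from 98.5 ± 0.724 to 75.0 ± 9.24 CPM (log2 -0.39 ± 0.0773, adjusted p = 2.37e-04). Its share of the summed Frizzled level per kb was 25.2% in WT and 9.94% in Nono KO, where Fzd1 and Fzd2 rose. Fzd6 had 3.56 ± 1.03 CPM in WT and fell in Sox5 KO, to 0.985 ± 0.253 (log2 -1.85 ± 0.335, adjusted p = 6.37e-05). In Xap5 KO and Nono KO the values of Fzd6 overlapped WT, at 3.10 ± 0.666 and 3.53 ± 0.992 CPM. Fzd8 moved in opposite directions: it stood at 14.2 and 12.8 CPM in WT cells, at 22.7, 23.1 and 23.4 in Xap5 KO, at 9.62, 10.3 and 9.36 in Nono KO and at 13.0, 14.6 and 12.2 in Sox5 KO. Fzd8 rose by 0.77 ± 0.124 on the log2 scale in Xap5 KO (adjusted p = 3.09e-05) and fell by 0.47 in Nono KO (SE 0.123, adjusted p = 0.00316), and the call in Nono KO was lost without WT replicate 1. The Sox5 KO libraries overlapped WT for Fzd8, although an offset for length and GC content turned that value from -0.03 to a called 0.33.

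Lrp5 and Lrp6, the co-receptors of the beta-catenin branch, and the receptor kinases Ror1 and Ror2, which take Wnt5a, all fell in Sox5 KO, although Lrp5 turned to higher under an offset for length and GC content. Lrp6 (ENSMUSG00000030201) stood at 219 and 217 CPM in WT cells, at 203, 187 and 191 in Xap5 KO, at 223, 215 and 252 in Nono KO and at 88.5, 97.8 and 96.0 in Sox5 KO. The Sox5 KO libraries were far below all others, with a log2 fold change of -1.21 ± 0.0685 (adjusted p = 2.53e-12), or -0.58 with an offset for length and GC content. In Xap5 KO the difference of -0.17 ± 0.0685 for Lrp6 (adjusted p = 0.0480) was at the threshold. It was lost without either WT library, without Xap5 KO replicate 2 or 3, without Nono KO replicate 1, without Sox5 KO replicate 3 and with the length and GC offset. An offset for the median deviation of each chromosome, chosen after the data were seen, turned it to 0.10 and made the value of Lrp6 in Nono KO a called 0.29. The median log2 fold change of the 629 tested genes of chromosome 6, which carries Lrp6, in the knockouts was -0.25 (Xap5), -0.19 (Nono) and -0.35 (Sox5).

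Lrp5 (ENSMUSG00000024913) had 149 and 154 CPM in WT and 100.1, 118 and 109 in Sox5 KO, all below WT, and differed by -0.48 ± 0.0743 on the log2 scale (adjusted p = 1.03e-05). That direction depended on the processing: with the offset for length and GC content the value of Lrp5 was 0.18 and was called higher. Xap5 KO and Nono KO overlapped WT for Lrp5, with means of 149.9 ± 10.2 and 152 ± 10.2 CPM. Ror1 (ENSMUSG00000035305) stood at 27.9 and 23.2 CPM in WT cells, at 32.6, 32.2 and 34.4 in Xap5 KO, at 24.9, 26.5 and 28.3 in Nono KO and at 9.83, 9.76 and 10.2 in Sox5 KO. It fell in Sox5 KO (log2 -1.36 ± 0.106, adjusted p = 4.72e-10) and rose in Xap5 KO (log2 0.37 ± 0.103, adjusted p = 0.00549), where the call was lost without WT replicate 2. Ror2 (ENSMUSG00000021464) stood at 28.0 and 25.2 CPM in WT cells, at 26.4, 26.3 and 25.0 in Xap5 KO, at 30.3, 35.6 and 30.9 in Nono KO and at 19.2, 19.8 and 19.9 in Sox5 KO. It fell in Sox5 KO (log2 -0.44 ± 0.0994, adjusted p = 6.64e-04). In Nono KO, Ror2 rose by 0.28 (SE 0.0989, adjusted p = 0.0242), a call lost without WT replicate 2, without Nono KO replicate 2, with library totals alone and with the chromosome offset, which also made the value of Ror2 in Xap5 KO a called -0.35.

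**Figure D4:**
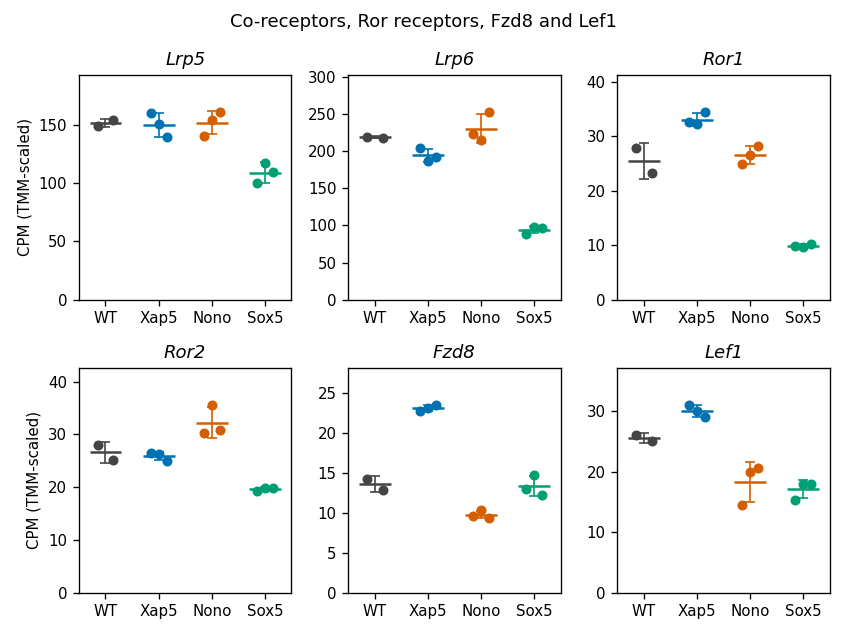
CPM in each library (points), with the mean and SD of each genotype, for the co-receptors Lrp5 and Lrp6, the receptor kinases Ror1 and Ror2, the receptor Fzd8 and the nuclear factor Lef1; every axis starts at 0. On this scale, which has no offset for length and GC content, the Sox5 KO libraries are the lowest for Lrp5, Lrp6, Ror1 and Ror2, at 9.76 to 10.2 CPM for Ror1, and the Xap5 KO libraries are the highest for Fzd8.

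Of the ligands, Wnt5a and Wnt9a carried most of the RNA, and the balance between them differed between genotypes. Wnt5a, the ligand best known for signalling without beta-catenin (ENSMUSG00000021994), stood at 15.7 and 20.2 CPM in WT cells, at 3.65, 4.09 and 5.20 in Xap5 KO, at 10.8, 9.04 and 9.78 in Nono KO and at 3.68, 4.03 and 3.83 in Sox5 KO. Every knockout library was below both WT libraries, and the Xap5 KO and Sox5 KO libraries overlapped each other. The log2 fold change of Wnt5a was -2.06 ± 0.178 in Xap5 KO (adjusted p = 5.87e-09), -0.86 ± 0.173 in Nono KO (adjusted p = 2.94e-04) and -2.22 ± 0.181 in Sox5 KO (adjusted p = 9.27e-10). Wnt5a overlaps a gene on the other strand, so its counts carry the same uncertainty as those of Fzd5. Wnt9a (ENSMUSG00000000126) stood at 6.43 and 4.54 CPM in WT cells, at 3.83, 4.62 and 3.32 in Xap5 KO, at 11.5, 8.21 and 11.8 in Nono KO and at 7.64, 8.13 and 6.76 in Sox5 KO. It rose in Nono KO (log2 0.94 ± 0.214, adjusted p = 0.00101), and did not pass the test in Xap5 KO (log2 -0.48 ± 0.214, adjusted p = 0.0740) or Sox5 KO (log2 0.46 ± 0.214, adjusted p = 0.0719). Both depended on single libraries: Wnt9a passed in Xap5 KO without WT replicate 2 (-0.72) or Xap5 KO replicate 2 (-0.62), and in Sox5 KO without WT replicate 1 (0.72) and in a fit of those groups alone (0.45). As a share of all Wnt RNA per kb, Wnt5a stood at 50.3% ± 8.05 in WT, at 27.9% ± 6.70 in Xap5 KO, at 24.5% ± 2.51 in Nono KO and at 16.9% ± 1.35 in Sox5 KO. The share of Wnt9a was 32.6% ± 8.58, 52.9% ± 4.44, 54.4% ± 2.14 and 69.6% ± 2.44 in the same order.

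The other 4 tested ligands were scarce. Wnt10a (ENSMUSG00000026167) had 0.546 and 0.386 CPM in the WT libraries and 0 counts in every knockout library. Against the floor of 3 counts per library it was lower by at least 6.14-fold in Xap5 KO, by at least 6.08-fold in Nono KO and by at least 4.82-fold in Sox5 KO. That floor covers counting error only, and less of it if the mates of read pairs were counted separately. Because Wnt10a entered the test through WT alone, no p-value is given for it. Wnt10b, a ligand of the beta-catenin branch known for holding back fat cell formation (ENSMUSG00000022996), stood at 0.248 and 0.295 CPM in WT cells, at 0.463, 0.292 and 0.670 in Xap5 KO, at 2.12, 1.14 and 2.02 in Nono KO and at 0.680, 0.644 and 0.638 in Sox5 KO. It rose in Nono KO (log2 2.68 ± 0.669, adjusted p = 0.00219). In Xap5 KO and Sox5 KO the values of Wnt10b were 0.80 ± 0.652 and 1.26 ± 0.657, neither past the threshold, although all 3 Sox5 KO libraries were above WT. Wnt11, a ligand of cell movement in the embryo (ENSMUSG00000015957), had 0.323 and 0.250 CPM in WT, 0 in all 3 Xap5 KO libraries, 0.469, 0.292 and 0.276 in Nono KO and 0.155, 0.136 and 0.128 in Sox5 KO. Wnt11 in Xap5 KO was below WT by at least 3.77-fold (adjusted p = 0.00420), and the other knockouts did not pass the test. Wnt2b stood at 1.33 ± 0.167 CPM in WT, at 0.677 ± 0.599 in Xap5 KO, at 1.29 ± 0.255 in Nono KO and at 0.403 ± 0.144 in Sox5 KO. Its lower level in Sox5 KO (log2 -1.71 ± 0.665, adjusted p = 0.0311) was lost without either WT library, without Sox5 KO replicate 2 or 3, with the replicate block and with the chromosome offset. Wnt2b passed the test in Xap5 KO without Xap5 KO replicate 2 (-1.99).

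Among the secreted antagonists, Sfrp1 rose in every knockout by the largest fold of any member called higher in all 3. Sfrp1, a Frizzled-like decoy for Wnt ligands (ENSMUSG00000031548), stood at 36.9 and 39.8 CPM in WT cells, at 183, 179.6 and 157 in Xap5 KO, at 382, 345 and 349.8 in Nono KO and at 154, 178 and 170.4 in Sox5 KO. WT was the lowest group and Nono KO the highest, and neither overlapped another group. Its mean was 4.52 times that of WT in Xap5 KO (log2 2.17 ± 0.0821, adjusted p = 7.81e-15), 9.36 times in Nono KO (log2 3.23 ± 0.0859, adjusted p = 1.74e-17) and 4.37 times in Sox5 KO (log2 2.13 ± 0.0820, adjusted p = 6.73e-15). Chromosome 8, which carries Sfrp1, had a median log2 fold change over 715 tested genes of -0.35 (Xap5), -0.13 (Nono) and 0.24 (Sox5).

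Sfrp2 (ENSMUSG00000027996) moved in opposite directions. It stood at 28.9 and 27.3 CPM in WT cells, at 9.73, 16.6 and 11.6 in Xap5 KO, at 32.7, 37.9 and 38.7 in Nono KO and at 54.5, 56.1 and 53.5 in Sox5 KO, and the 4 genotypes lay in separate ranges. Sfrp2 fell in Xap5 KO (log2 -1.15 ± 0.158, adjusted p = 3.62e-05) and rose in Sox5 KO (log2 0.96 ± 0.158, adjusted p = 1.06e-04). In Nono KO its value of 0.38 ± 0.156 (adjusted p = 0.0622) missed the threshold and passed it in 5 alternatives, DESeq2 among them. The share of Sfrp1 in Sfrp RNA per kb stood at 38.3% ± 2.31 in WT, at 86.1% ± 3.10 in Xap5 KO, at 81.8% ± 2.16 in Nono KO and at 58.3% ± 1.70 in Sox5 KO, and almost all of the rest was Sfrp2. Sfrp5 was at 0.387 CPM or less in every library and passed no test.

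Dkk2, an antagonist that binds Lrp5 and Lrp6 (ENSMUSG00000028031), was nearly lost in Xap5 KO. It stood at 6.87 and 6.49 CPM in WT cells, at 0, 0 and 0.180 in Xap5 KO, at 8.54, 8.09 and 6.24 in Nono KO and at 0.990, 1.49 and 1.75 in Sox5 KO. The Xap5 KO value rests on 7 counts in replicate 3, the other 2 libraries being at 0. The fitted log2 fold change of Dkk2 was -6.74 ± 0.547 in Xap5 KO (adjusted p = 2.14e-08), -2.24 ± 0.382 in Sox5 KO (adjusted p = 6.72e-05) and 0.19 ± 0.361 in Nono KO, where the libraries overlapped WT. Without Xap5 KO replicate 3 the Xap5 KO group of Dkk2 was at 0, and the call was kept. Dkk3, the most abundant antagonist and one with a weak link to Wnt signalling (ENSMUSG00000030772), stood at 261 and 269 CPM in WT cells, at 272, 254 and 274 in Xap5 KO, at 376, 380.0 and 405 in Nono KO and at 310.2, 322 and 309 in Sox5 KO. Dkk3 rose in Nono KO (log2 0.55 ± 0.0587, adjusted p = 1.15e-07) and in Sox5 KO (log2 0.24 ± 0.0583, adjusted p = 0.00114), the latter not with library totals alone or with the chromosome offset. Xap5 KO overlapped WT for Dkk3, with a difference of 0.01 ± 0.0579.

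**Figure D5:**
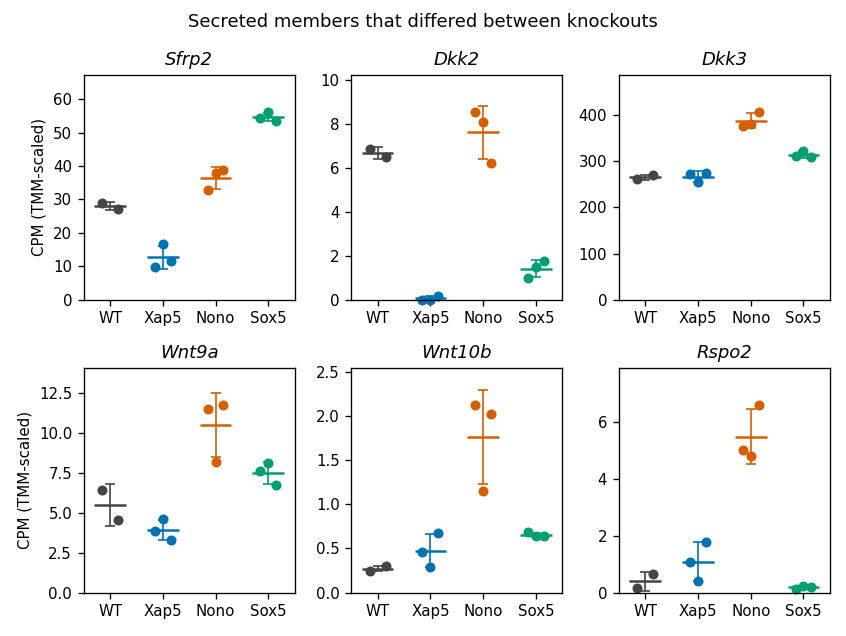
CPM in each library (points), with the mean and SD of each genotype, for the antagonists Sfrp2, Dkk2 and Dkk3, the ligands Wnt9a and Wnt10b and the agonist Rspo2; every axis starts at 0. Sfrp2 is lowest in Xap5 KO and highest in Sox5 KO, Dkk2 is at 0 to 0.180 CPM in Xap5 KO, and Rspo2 reaches 4.82 to 6.60 CPM in Nono KO alone.

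Rspo2, the only R-spondin with enough signal for the test (ENSMUSG00000051920), was high in Nono KO. It stood at 0.149 and 0.635 CPM in WT cells, at 1.08, 0.414 and 1.78 in Xap5 KO, at 5.03, 4.82 and 6.60 in Nono KO and at 0.124, 0.237 and 0.191 in Sox5 KO. The Nono KO libraries lay above all others, 14.0 times WT in the mean (log2 3.78 ± 0.587, adjusted p = 2.26e-05). The WT libraries differed widely, and the Rspo2 value in Nono KO was 3.11 without WT replicate 1 and 5.18 without WT replicate 2. In Xap5 KO the libraries overlapped WT, and the call (log2 1.45 ± 0.568, adjusted p = 0.0441) was lost in most alternatives. Among them, it was lost without WT replicate 1 (0.76), without Xap5 KO replicate 1 (1.44) or 3 (0.89), and without any single Nono KO or Sox5 KO library (1.45 in each). Without WT replicate 2, Rspo2 in Xap5 KO was 2.83 and stayed called. In Sox5 KO its value was -1.10 ± 0.667, which did not pass the test, but without WT replicate 1 it was a called -1.79.

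Of the feedback and nuclear genes, Axin2 rose in every knockout and Lef1 fell in Nono KO and Sox5 KO. Axin2 (ENSMUSG00000000142) was a low transcript at 0.397 and 0.272 CPM in WT, at 1.24, 0.657 and 1.37 in Xap5 KO, at 1.90, 1.88 and 1.33 in Nono KO and at 0.897, 1.15 and 0.829 in Sox5 KO, with every knockout library above WT. The log2 fold change of Axin2 was 1.69 ± 0.574 in Xap5 KO (adjusted p = 0.0205), 2.34 ± 0.581 in Nono KO (adjusted p = 0.00211) and 1.51 ± 0.576 in Sox5 KO (adjusted p = 0.0282). The Xap5 KO call was lost without WT replicate 2 (1.44), without Xap5 KO replicate 3 (1.49) and in a fit of those 2 groups alone, and the Sox5 KO call without WT replicate 2 (1.26) or Sox5 KO replicate 2 (1.36). Lef1, a DNA-binding partner of beta-catenin and itself a known target (ENSMUSG00000027985), stood at 26.1 and 25.0 CPM in WT cells, at 31.0, 29.9 and 29.1 in Xap5 KO, at 14.4, 19.9 and 20.5 in Nono KO and at 15.4, 18.0 and 18.0 in Sox5 KO. It fell in Nono KO (log2 -0.48 ± 0.126, adjusted p = 0.00327) and Sox5 KO (log2 -0.58 ± 0.127, adjusted p = 5.16e-04). In Xap5 KO all libraries lay above WT for Lef1, with a value of 0.23 ± 0.127 that did not pass the test. Axin2 and Lef1 moved in opposite directions in Nono KO and in Sox5 KO. Tcf7, Nkd1 and Nkd2 did not have enough counts to be tested. Exons of Axin2, Lef1, Wnt11, Fzd6 and Sfrp2 also overlap genes on the other strand.

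Set against each other without WT, the knockouts differed in 61.5% to 80.8% of the 26 tested members. Against Nono KO, 5 members were higher and 15 lower in Xap5 KO, while 27.1% of all tested genes were higher and 25.9% lower (53% either way). Against Sox5 KO, 10 members were higher and 6 lower in Xap5 KO (all genes 31.1% and 30.4%, 61.6% either way). The 61.5% of members called in that contrast was near the share of all genes. Of Nono KO against Sox5 KO, 17 members were higher and 4 lower (all genes 30.9% and 32.6%, 63.5% either way), among them all 12 tested receptors, 9 higher and 3 lower, of which Lrp5 was not called with the length and GC offset (-0.037). Sfrp1 was 1.05 ± 0.0666 lower on the log2 scale in Xap5 KO than in Nono KO (adjusted p = 3.33e-11) and 1.10 ± 0.0668 higher in Nono KO than in Sox5 KO (adjusted p = 7.47e-12). Fzd4 was 2.00 ± 0.153 lower in Xap5 KO than in Nono KO (adjusted p = 5.73e-10) and 1.52 ± 0.151 higher in Nono KO than in Sox5 KO (adjusted p = 1.50e-08). Fzd3 ran the other way, 2.06 ± 0.128 higher in Xap5 KO than in Nono KO (adjusted p = 2.49e-11) and 1.47 ± 0.129 lower in Nono KO than in Sox5 KO on the log2 scale (adjusted p = 2.40e-09), the latter -2.28 with the length and GC offset. Rspo2 was 4.88 ± 0.561 higher in Nono KO than in Sox5 KO (adjusted p = 2.43e-07), the largest member difference between these lines.

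Members that differed between Xap5 KO and Sox5 KO included Dkk2, Sfrp2, Ror1 and Lrp6. Dkk2 was lower in Xap5 KO by 4.50 ± 0.581 on the log2 scale (adjusted p = 2.93e-06, a value that rests on the 7 counts of Xap5 KO replicate 3), and Sfrp2 by 2.11 ± 0.146 (adjusted p = 1.28e-08). Ror1 was higher in Xap5 KO by 1.73 ± 0.0981 (adjusted p = 3.17e-12) and Lrp6 by 1.04 ± 0.0629 (adjusted p = 8.59e-12), or by 0.48 with the length and GC offset, still past the threshold. Sfrp1, Fzd1, Fzd5, Wnt5a and Axin2 did not pass the test between these lines, with log2 differences of 0.05 ± 0.0664, 0.05 ± 0.0620, 0.03 ± 0.0740, 0.17 ± 0.172 and 0.18 ± 0.471. For 4 of the 5 the call depended on the processing. With the chromosome offset Sfrp1 was higher in Xap5 KO by 0.66, Wnt5a was higher by 0.51 and Fzd1 was lower at -0.19, and with the length and GC offset Fzd5 was lower at -0.34, each past the threshold. Chromosome 14, which carries Wnt5a and Fzd3, had a median log2 difference of -0.36 over 461 genes in this contrast, and chromosome 8 had -0.59.

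Other genes of the pathway were read from lists that hold no member. Of the 22 genes around the beta-catenin destruction complex, 3 rose and 7 fell in Xap5 KO, 4 and 12 in Nono KO, and 4 and 11 in Sox5 KO, with median log2 differences of -0.02, -0.23 and -0.15. Of all tested genes, 45.5%, 48.6% and 60.9% were called in these contrasts. Thus 10 of 22 in Xap5 KO was the share of all genes, 15 of 22 in Sox5 KO was near it and 16 of 22 in Nono KO was above it. The excess in Nono KO was not kept with the chromosome offset, where 9 of 22 and 44.6% of all genes were called. These splits moved with the scaling: with library totals alone they were 1 and 16 in Nono KO and 2 and 13 in Sox5 KO, with the length and GC offset 6 and 6 in Xap5 KO and 8 and 5 in Sox5 KO, and with the chromosome offset 1 and 6 in Xap5 KO and 1 and 8 in Nono KO. In Nono KO 2 rose and 8 fell without WT replicate 2. Ctnnb1, which encodes beta-catenin, stood at 1188 and 1192 CPM in WT cells, at 1151, 1188 and 1307 in Xap5 KO, at 1013, 972 and 1064 in Nono KO and at 1019.9, 1071 and 1003 in Sox5 KO. It fell by 0.23 on the log2 scale in Nono KO (SE 0.0631, adjusted p = 0.00491, lost without WT replicate 2) and by 0.21 in Sox5 KO (SE 0.0631, adjusted p = 0.00766), and differed by 0.03 ± 0.0634 in Xap5 KO. Apc2, a relative of the destruction complex scaffold Apc, fell in Xap5 KO (log2 -1.37 ± 0.119, adjusted p = 6.85e-09) and in Sox5 KO (log2 -5.00 ± 0.154, adjusted p = 1.66e-16, or -4.11 with the length and GC offset), from 33.9 and 35.9 CPM in WT to 0.959, 0.847 and 1.44 in Sox5 KO. Gsk3b, the kinase of the destruction complex, fell in Sox5 KO (log2 -1.26 ± 0.0685, adjusted p = 1.39e-12). In Xap5 KO and Nono KO Gsk3b was called higher. Among other alternatives, both of these calls were lost with library totals alone (0.14 and 0.025), with the replicate block (0.16 in each) and with the chromosome offset (0.079 and -0.058). Tnks2, a tankyrase that marks Axin proteins for removal, fell in Xap5 KO (log2 -0.999 ± 0.0648, adjusted p = 5.91e-11).

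Of the 14 nuclear partners of Lef1 and the Tcf factors, 3 rose and 5 fell in Xap5 KO, 2 and 5 in Nono KO, and 2 and 11 in Sox5 KO, where 45.5%, 48.6% and 60.9% of all genes were called either way. In Nono KO, 7 of 14 is near that share. The Sox5 KO split was 1 and 6 with the length and GC offset. The Xap5 KO split was 1 and 4 without either WT library, 1 and 6 with library totals alone and 1 and 5 with the chromosome offset or without Xap5 KO replicate 1, and the Nono KO split was 1 and 6, 3 and 4 and 1 and 7 with library totals alone, the length and GC offset and the chromosome offset. Tcf7l1, the Tcf factor known mainly as a repressor, fell in Sox5 KO (log2 -1.41 ± 0.113, adjusted p = 2.06e-09) and in Xap5 KO (log2 -0.79 ± 0.111, adjusted p = 9.38e-06). Pygo1 and Bcl9, which link beta-catenin to chromatin, fell in Sox5 KO by 1.35 and 1.22 on the log2 scale (SE 0.0928 and 0.0864, adjusted p = 6.03e-11 and 9.45e-11). The corepressor Tle2 fell in Xap5 KO (log2 -1.04 ± 0.0874, adjusted p = 4.06e-09), where its relative Tle1 rose (log2 0.80 ± 0.0740, adjusted p = 1.62e-08). Tle4 fell in Nono KO (log2 -1.26 ± 0.155, adjusted p = 8.51e-07).

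Among 13 tested of 21 genes that act on ligands and receptors at the cell surface, 2 rose and 7 fell in Xap5 KO, 6 and 4 in Nono KO, and 3 and 5 in Sox5 KO, beside all-gene shares of 45.5%, 48.6% and 60.9%. In Sox5 KO, 8 of 13 is near the share of all genes. The Sox5 KO split was 2 and 7 with library totals alone and 2 and 6 with the chromosome offset or without Sox5 KO replicate 2. Notum, an enzyme that removes the lipid of Wnt proteins and a known target of the pathway, stood at 2.70 and 3.22 CPM in WT cells, at 0 in all Xap5 KO libraries, at 0.123, 0 and 0 in Nono KO and at 0.278, 0.271 and 0.159 in Sox5 KO, and was called lower in each (adjusted p = 7.65e-06, 4.18e-05 and 9.34e-04). Gpc4, a cell surface proteoglycan that binds Wnt ligands, stood at 35.0 and 32.4 CPM in WT cells, at 1.21, 1.17 and 1.83 in Xap5 KO, at 128, 127 and 147 in Nono KO and at 0.0618, 0.237 and 0 in Sox5 KO. Gpc4 thus rose in Nono KO (log2 2.00 ± 0.162, adjusted p = 2.34e-07) and fell in Xap5 KO (log2 -4.58 ± 0.193, adjusted p = 3.07e-10) and Sox5 KO (log2 -8.40 ± 0.299, adjusted p = 2.03e-11). The Sox5 KO value of Gpc4 rests on 2, 7 and 0 counts, and without replicate 2 it was -9.92, still called. Lgr6, an R-spondin receptor, fell in all 3 knockouts, from 18.8 and 18.3 CPM in WT to means that differed by -1.21 ± 0.174, -2.15 ± 0.178 and -3.16 ± 0.190 on the log2 scale for Xap5, Nono and Sox5 KO (adjusted p = 7.68e-06, 2.10e-09 and 6.77e-12).

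Of 22 tested genes of planar polarity and signalling without beta-catenin, 6 rose and 8 fell in Xap5 KO, 3 and 13 in Nono KO, and 2 and 13 in Sox5 KO (45.5%, 48.6% and 60.9% of all genes either way). With the length and GC offset the Sox5 KO split was 7 and 10, and with the chromosome offset the Nono KO split was 5 and 12. Celsr3, an atypical cadherin of planar polarity, fell in each knockout, from 3.90 and 4.68 CPM in WT to at most 0.797 CPM in any knockout library (log2 -3.35 ± 0.522, -2.83 ± 0.508 and -2.80 ± 0.513 for Xap5, Nono and Sox5 KO, adjusted p = 2.03e-05, 9.02e-05 and 7.23e-05), the Sox5 KO value being -1.95 with the length and GC offset. Daam2, a formin that links Dishevelled to actin, fell in Xap5 KO (log2 -1.16 ± 0.1001, adjusted p = 2.23e-08) and Nono KO (log2 -2.11 ± 0.102, adjusted p = 3.84e-12). Prickle2 fell in Sox5 KO (log2 -2.07 ± 0.145, adjusted p = 7.97e-11). Of the 12 tested among 19 widely used beta-catenin targets, 3 rose and 5 fell in Xap5 KO, 6 and 4 in Nono KO, and 4 and 6 in Sox5 KO, against the same shares of all genes, the Xap5 KO split being 4 and 4 with the length and GC offset. Ccn4 and Ccn5, secreted matricellular proteins first described as Wnt-induced, rose in every knockout. Ccn4 stood at 28.6 and 27.2 CPM in WT cells, at 96.0, 97.2 and 106 in Xap5 KO, at 130.2, 132 and 154 in Nono KO and at 106, 103 and 109 in Sox5 KO, with log2 fold changes of 1.84 ± 0.0805, 2.31 ± 0.0819 and 1.92 ± 0.0809 (adjusted p = 1.01e-13, 2.44e-15 and 2.72e-14). Ccn5 rose by 0.98 ± 0.0670, 1.82 ± 0.0692 and 1.11 ± 0.0674 in the same order (adjusted p = 1.35e-10, 7.63e-15 and 8.53e-12). Cd44, a surface glycoprotein used as a target gene, fell by 0.90, 1.31 and 1.54 on the log2 scale in that order (SE 0.0694, 0.0695 and 0.0698, adjusted p = 9.73e-10, 1.61e-12 and 8.23e-14).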

How the data were processed

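Total RNA of 11 NIH/3T3 cultures was sequenced with NEBNext Ultra II libraries, per the labels' protocols. The authors deposited 1 table of whole-number values per gene, which were taken as rounded estimated counts since 2 was found 3302 times in the table and 1 was found 857 times. If the mates of a read pair were counted separately, the depths stand for fewer fragments. The submitters' processing notes name HISAT2 2.1.0, StringTie 1.3.3b and DESeq2 1.12.4 and the builds GRCm39 and mm39, with no role or order. The annotation and the handling of strand are not given in the sources used here.

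Genes kept by edgeR's expression filter (at least 10 counts in enough libraries, at least 15 in all) were fitted with edgeR 4.0.16 in R 4.3.3 (TMM factors, robust quasi-likelihood fit, all 11 libraries, 1 mean per genotype), and 6 contrasts were tested. The SE is the size of the log2 fold change divided by the square root of the F statistic. The common biological coefficient of variation was 10.6%. A group with at most 3 counts in every library was treated as at the floor. Levels per kb used the longest transcript of GENCODE M21 on GRCm38, matched by gene ID, which also gave chromosomes and overlapping genes. Because the builds differ, no gene coordinates are printed, and promoter coordinates are those of RefSeq GRCm38.p6. The fit was tested on simulated counts that had no shifts by chromosome, length or GC content, so that run does not bear on such shifts.

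Replicate numbers showed no strong pairing of the libraries: none of 15 same-numbered pairs had a correlation of deviations over 0.1 (-0.0226 to 0.0465). That cut-off cannot exclude a weak shared effect, and the counts with a replicate block are given below. No 2 libraries were identical. Alternatives were median-ratio factors, library totals, no or another count filter, DESeq2 1.42.0, the 2 groups alone, a replicate block, a 2-fold minimum, an offset for length and GC content, leaving out each library, and, added later, a chromosome offset. Members and lists were chosen with earlier results of these data known. Values in every library were given for members called in all 3 knockouts, the 3 largest changes per knockout, members called in opposite directions, and the feedback and nuclear genes. Wnt9a, Wnt10b, Lrp5, Lrp6 and Dkk3, also shown by library, were chosen after their values were seen. Of each pathway list, the 2 called genes with the largest change per knockout and Ctnnb1 could be named.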

Additional observations from a re-analysis of the deposited data

Results flagged for a closer look

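The 4 members called in opposite directions against WT in 2 knockouts were compared directly. They were chosen for those opposite calls in the same libraries, so the direct differences are a description. Fzd8 was 1.24 higher on the log2 scale in Xap5 KO than in Nono KO, having risen in the former and fallen in the latter. Ror1 was 1.73 higher in Xap5 KO than in Sox5 KO. For Sfrp2 the difference of Xap5 KO from Sox5 KO was -2.11, with all Xap5 KO libraries below WT and all Sox5 KO libraries above it. Ror2 was 0.72 higher in Nono KO than in Sox5 KO.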

How the results depend on the processing

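The number of called members stayed within 1.5 times under each alternative except a 2-fold minimum. With that minimum it was 9, 9 and 11 for Xap5 KO, Nono KO and Sox5 KO against WT, 11 for Xap5 KO against Nono KO, 7 for Xap5 KO against Sox5 KO, 11 for Nono KO against Sox5 KO, and 3 members with the same sign in all 3 knockouts. The 2-fold counts against WT include Wnt10a, which entered the test through its WT libraries alone. Of the 3 with the same sign, 2 were higher and Wnt10a was the lower one. Leaving out 1 library gave 12 to 17, 15 to 18 and 16 to 18 against WT, 20 to 21, 16 to 16 and 18 to 21 between knockouts, and 7 to 8 with the same sign. In fits without 1 WT library, the lone WT library was assumed to vary like the other groups. With a replicate block the counts were 14, 17 and 16 against WT, 20, 16 and 21 between knockouts, and 7 with the same sign. Of 108 called member values over the 6 contrasts, 83 kept call and direction in every alternative that gave a value, the 2-fold one apart, and of 48 values not called, 31 stayed so. With the offset for length and GC content, directions turned for Fzd8 (0.33), Lrp5 (0.18), Csnk1g1 (0.19), Daam2 (0.48) and Tnks2 (0.24) in Sox5 KO against WT, for Fzd3 (-0.22), Fzd5 (-0.34) and Lrp5 (-0.033) in Xap5 KO against Sox5 KO, and for Lrp5 (-0.037) in Nono KO against Sox5 KO. The list genes Csnk1g1, Daam2 and Tnks2 had negative values in Sox5 KO without that offset, and each was called higher with it. With the chromosome offset they turned for Lrp6 in Xap5 KO (0.10) and Gsk3b in Nono KO (-0.058) against WT and for Fzd1 in Xap5 KO against Sox5 KO (-0.19). The cause was not tested. With library totals alone the median of all genes was -0.18 in Nono KO and -0.12 in Sox5 KO against WT and 0.12 in Xap5 KO against Nono KO, in place of -0.0196, -0.00581 and 0.00969. With a minimum mean of 10 counts Wnt10a, Wnt11 and Sfrp5 were not tested. Wnt10a, Wnt11, Wnt2b, Wnt10b, Rspo2, Axin2 and Sfrp5 were low in counts, which limits their precision.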
